A study of Mus musculus with 15 samples.

Results

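Of 111393 regions where CD4+ T cells of mice showed accessible chromatin in at least 1 library, 1144 had a peak in none of the 8 libraries at 72 h of activation and in all 7 libraries at 0 h. Accessibility was measured by ATAC-seq, in which the Tn5 transposase cuts and tags DNA that is not covered by nucleosomes, so that sequenced fragments pile up over open chromatin. The members were found by merging the 15 peak lists of single libraries, with peaks that shared at least 1 bp joined into 1 region, and by taking the regions with those calls, so they were chosen by the presence and absence of peaks at both times. They are called closed regions here for short, but a peak is a threshold measure, and a region with no peak is not shown to be closed. These 1144 regions were 1.03% of the union and 4.378% of the 26133 regions with a peak in all 7 libraries at 0 h. The number depends on the lists: it was 1889 without untreated knockout library 3, 3083 with equally many peaks per library and 381 where peaks had to cover at least 0.5 of a region. The loss of the peaks is therefore a description and was not tested. In such bulk libraries, a signal from fewer open cells and a weaker signal in each cell cannot be told apart.

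The cells came from 4 groups of IRF5-/- (knockout) and IRF5+/+ (wild-type) mice: knockout cells activated for 72 h (4 libraries), wild-type cells activated for 72 h (4 libraries), untreated knockout cells (3 libraries, 0 h, numbered 1, 3 and 4) and untreated wild-type cells (4 libraries, 0 h). The study text places the activation in vitro, and the labels give neither the stimulus, the strain, the age of the mice nor the construction of the knockout allele. The labels do not say that libraries came from separate animals, and the p-values given here then reflect only how far these libraries differ, possibly for technical reasons.

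CD4+ T cells circulate in a resting state that is kept by transcription factors such as FOXP1, KLF2, LEF1 and TCF7, by survival signals through the interleukin 7 receptor, and by inhibitors of T cell receptor signalling. Engagement of the T cell receptor ends this state: cells grow, divide and take up effector programmes, and part of the enhancers used at rest lose accessibility while others gain it. IRF5 is an interferon regulatory factor, best known for inducing inflammatory cytokines in myeloid cells and B cells, with reported roles in T cells.

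The sequence of a closed region could be read only where it reached a promoter window of the reference, 250 bases before to 50 bases after a gene's start, taken from RefSeq on GRCm38.p6, the assembly behind mm10. Of the 1144 closed regions, 18 (1.573%) touched such a window, against 6.105% of the 7420 regions with a peak in all 8 libraries at 72 h and none at 0 h (opened regions) and 40.895% of the 21176 regions with a peak in all 15 libraries (constant regions). The 18 windows belonged to 6 protein-coding genes and 12 long non-coding RNA genes. In 5 of them the highest point of the peak, its summit, lay inside the window in all 7 libraries, and these are shown as the promoters most directly covered by a closed region. They are those of Chil5, a chitinase-like gene, on the minus strand at chr3:106032896-106033081, of Clec12a, an inhibitory C-type lectin receptor best known on myeloid cells, on the plus strand at chr6:129349994-129350243, of the non-coding genes Gm39321 (plus strand, chr9:42141831-42142080) and Gm36077 (minus strand, chr1:151083921-151084170), and of Cfap97d2 (plus strand, chr8:13705639-13705888). The promoter of Xcl1, a chemokine made by activated CD8 T cells and NK cells (minus strand, chr1:164935565-164935772), had 3 of 7 summits inside and is added as the window of a known lymphocyte gene. Each line gives, 5′ to 3′ on the gene's strand, the part before the gene's start that lay in the closed region, and capitals mark matches to the motifs named in the next paragraph.
Chil5: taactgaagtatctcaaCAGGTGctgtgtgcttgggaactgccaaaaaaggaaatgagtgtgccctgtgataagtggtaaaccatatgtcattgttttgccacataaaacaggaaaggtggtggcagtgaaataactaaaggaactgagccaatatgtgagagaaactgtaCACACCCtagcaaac
Clec12a: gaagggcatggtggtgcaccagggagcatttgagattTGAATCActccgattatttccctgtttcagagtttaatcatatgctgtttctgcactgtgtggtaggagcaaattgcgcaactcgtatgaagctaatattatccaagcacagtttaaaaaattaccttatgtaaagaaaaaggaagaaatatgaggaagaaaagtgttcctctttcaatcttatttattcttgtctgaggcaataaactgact
Gm39321: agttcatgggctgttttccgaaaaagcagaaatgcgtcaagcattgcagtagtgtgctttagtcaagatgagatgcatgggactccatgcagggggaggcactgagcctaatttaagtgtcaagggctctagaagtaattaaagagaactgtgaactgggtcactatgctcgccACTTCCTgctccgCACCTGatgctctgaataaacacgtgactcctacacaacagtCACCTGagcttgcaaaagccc
Gm36077: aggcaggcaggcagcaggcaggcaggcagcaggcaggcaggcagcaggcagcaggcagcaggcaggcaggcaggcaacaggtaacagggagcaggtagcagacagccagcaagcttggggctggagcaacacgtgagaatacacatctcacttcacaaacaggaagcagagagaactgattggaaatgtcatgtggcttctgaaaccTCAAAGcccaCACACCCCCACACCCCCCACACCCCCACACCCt
Cfap97d2: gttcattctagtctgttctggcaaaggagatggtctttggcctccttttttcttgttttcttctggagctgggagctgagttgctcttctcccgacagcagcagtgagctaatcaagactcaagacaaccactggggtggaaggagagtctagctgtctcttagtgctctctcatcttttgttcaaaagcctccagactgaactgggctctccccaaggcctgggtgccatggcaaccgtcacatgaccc
Xcl1: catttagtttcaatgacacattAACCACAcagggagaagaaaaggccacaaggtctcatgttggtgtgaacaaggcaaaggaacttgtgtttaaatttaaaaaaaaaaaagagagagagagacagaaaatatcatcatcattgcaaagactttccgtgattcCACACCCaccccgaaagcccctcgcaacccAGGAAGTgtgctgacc

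The motifs were searched on both strands, with N for any base, overlapping matches counted and no motif containing another: AGGAAGT for ETS factors, TGTGGTT for RUNX, CTTTGA for TCF/LEF, GGGNGTG for KLF, GTAAACA for FOX, TGANTCA for AP-1, GAAANNGAAA for the interferon-stimulated response element (ISRE), AGATAA for GATA factors, CAGNTG for the E-box and AGGGGGC for the CTCF core. The ETS letters stood in 5 of the 18 windows (27.778%), against 9.351% of all 32851 windows, and the AP-1 letters also in 5 (27.778%), against 7.808%. These shares count whole windows, which a closed region may cover only in part. In the part before the start that lay in the closed region, ETS letters stood only at Gm39321 and Xcl1. There, AP-1 letters stood only at Gm32126 and Clec12a. RUNX stood in 2 (11.111%, against 5.269%), TCF/LEF in 3 (16.667%, against 16.003%), KLF in 4 (22.222%, against 29.156%), the E-box in 8 (44.444%, against 51.42%), the CTCF core in 2 (11.111%, against 10.612%) and GATA in 1 (5.556%, against 11.178%). FOX and ISRE letters stood in 0 of the 18, against 3.65% and 3.443% of all windows. In the stretches printed above, Clec12a carries 1 AP-1 match and Gm39321 1 ETS and 2 E-box matches. Gm36077 carries 7 KLF matches in a repeated stretch, and that of Xcl1 holds ETS, RUNX and KLF letters. The printed stretch of Cfap97d2 holds no match. The 18 windows had a median GC content of 49.5% and a median of 3 CpG sites, against 52.67% and 7 over all windows. Over 18 windows these shares are a description of those letters and not of sites in use.

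Depth was similar between times, with 21.3763 to 27.5576 M fragments after filtering in the libraries at 72 h and 20.5312 to 29.0005 M at 0 h, and 55519 to 69086 peaks were called per library at 72 h against 29994 to 47790 at 0 h. Untreated knockout library 3 stood apart, with 29994 peaks, while the next lowest library at 0 h, wild-type library 1, had 39807. It was also the lowest of the 7 in 1114 of the 1144 closed regions (97.378%), and values with and without it are given beside the genotype results. Per the file headers, wild-type library 4 at both times was made from an alignment numbered 5. The peak lists of the knockout libraries at 0 h are named 1 to 3, but their headers name alignments 1, 3 and 4, the numbers of the sample titles, which are used here. All 8 T cell markers examined (Cd3e, Cd3d, Cd3g, Cd4, Cd5, Cd2, Thy1 and Trat1) were open, in the gene or within 1 kb of it: 7 of the 8 had a peak there in all 8 libraries at 72 h, the exception being Thy1 with 6, and 8 of 8 in all 7 libraries at 0 h. Such peaks were also present in all 8 libraries at 72 h at 5 of 9 B cell, 4 of 7 myeloid and 3 of 6 CD8 and NK markers. In all 7 libraries at 0 h they were present at 4, 3 and 2 of them. No library had such a peak at the B cell genes Cd79b and Ms4a1, the myeloid genes Lyz2 and Adgre1 or the NK genes Klrb1c and Ncr1. Whether other cell types were present in the libraries was not tested. Within that distance, 2 closed regions lay at T cell markers, Cd3g and Trat1, and 0 at these markers of the other cell types. Irf5 had 7 regions, of which 0 were closed and 1 had a peak in all 15 libraries, knockout included. A peak there does not check the deletion, as the labels do not state which sequence was removed.

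Among regions with a peak in all 7 libraries at 0 h, the calls at 72 h fell at the extremes. Beside the 1144 closed regions, 500 had a peak in 1 of 8 libraries at 72 h and 21176 in all 8. The regions just outside the rule were much like the members in the first case and weaker in the second. The 500 regions called in 1 of 8 libraries at 72 h had a median pileup at 0 h of 1.71 per M fragments and a median width of 691.5 bp. The 927 regions with no peak at 72 h and a peak in 6 of 7 libraries at 0 h had a median pileup of 0.978 per M and a median width of 589 bp, and in 745 of them the missing library was untreated knockout library 3.

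**Figure D1:**
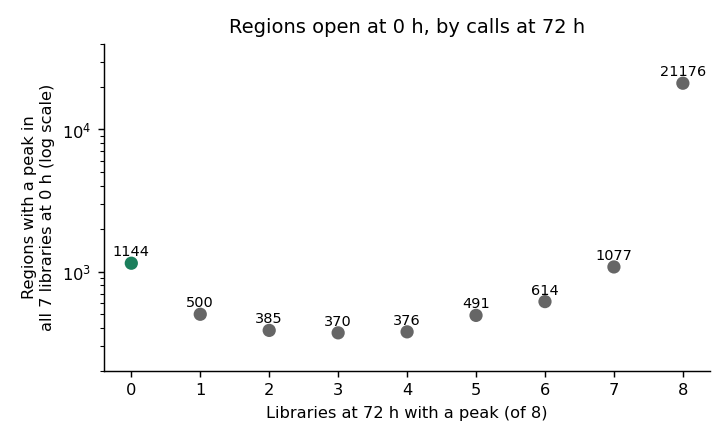
Number of regions with a peak in all 7 libraries at 0 h (log scale) against the number of the 8 libraries at 72 h with a peak there. The 1144 closed regions are the point at 0 of 8, in green, and the 21176 constant regions are the point at 8 of 8, with between 370 and 1077 regions at each step between them.

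Closed regions were lower and narrower than constant regions. Height is pileup per M, the number of fragments over the summit in the deposited list divided by the fragments left after filtering that the header states, in units of 1000000 (M). The median over the 1144 closed regions of the mean pileup at 0 h was 1.72 per M, from 0.567 to 9.27, against 4.06 per M in the constant regions and 3.32 in all regions with a peak in all 7 libraries at 0 h. Between the 10th and the 90th percentile the closed regions spanned 0.913 to 3.56 per M. Their median width was 670 bp (quartiles 517 and 847, from 212 to 3487 bp). It was 715 bp in the opened regions, 1175 bp in the constant regions and 500 bp over the whole union. A constant region joins peaks of both times and a closed region only those at 0 h, so these widths do not compare like with like. Within single libraries at 0 h, the median peak width was 270 to 546 bp in closed regions and 583 to 962 bp in constant regions. The widest closed region, 3487 bp at chr18:56506788-56510274, lay 2996 bp outside Gramd3, and the narrowest, 212 bp at chr16:45016581-45016792, lay inside Cd200r3.

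Library by library at 0 h, the median pileup of the closed regions was 1.69, 0.842 and 1.80 per M in knockout libraries 1, 3 and 4, and 1.65, 1.93, 2.02 and 1.94 per M in wild-type libraries 1 to 4. The constant regions moved in parallel, with medians of 3.85, 1.80 and 4.38 per M in the knockout libraries and 3.88, 4.41, 4.94 and 5.07 per M in the wild-type libraries. The ratio of the closed to the constant median stayed between 0.383 and 0.468 in the 7 libraries. Knockout library 3 was thus low in both classes, and apart from it the ranges of the genotypes overlapped for closed regions. When the peaks of each library were ranked by the authors' q value, the median closed region stood at the 30.59th percentile in knockout library 3 and between the 45.04th and 52.9th in the other 6, and only 2 to 5 closed regions per library were among its strongest 10%.

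**Figure D2:**
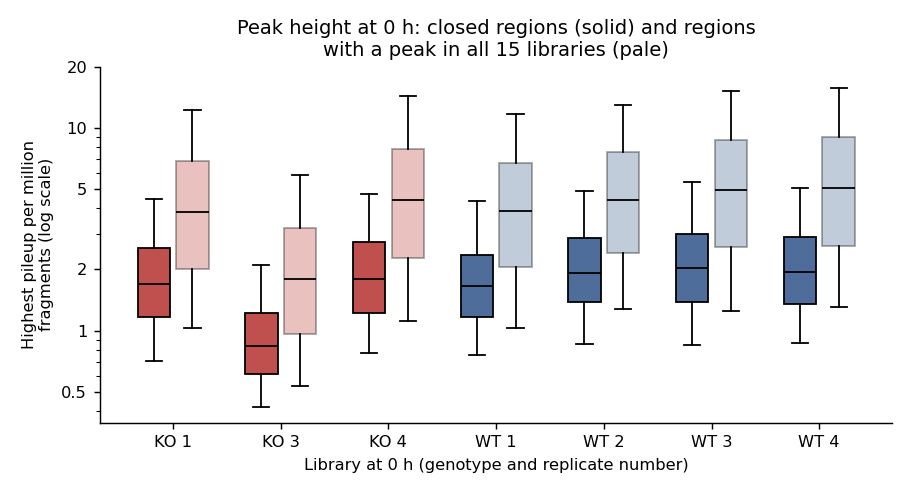
Highest pileup per M fragments (log scale) at 0 h in each knockout and wild-type library, with solid boxes for the 1144 closed regions and pale boxes for the 21176 constant regions. Boxes give the quartiles and the median, and whiskers the 5th and 95th percentiles. The closed medians lie between 0.842 (knockout 3) and 2.02 (wild type 3), below the constant median of the same library in every case.

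The peaks of a closed region sat at nearly the same place in every library. The distance between the lowest and the highest summit position over the 7 libraries had a median of 69 bp and was at most 100 bp in 825 of 1144 closed regions (72.115%). In the constant regions the median was 67 bp. In 1070 closed regions no library had more than 1 peak.

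The 10 closed regions with the highest mean pileup at 0 h lay near Bhmt, Mgst2, Plcxd2, Btg1, Stat5b, Dnajc5b, Eif2a, H60b, Ubash3b and Creb1, from 9.27 to 6.89 per M. The highest, chr13:93593323-93593965, lay 22926 bp from Bhmt, a betaine and homocysteine methyltransferase of liver and kidney, and the nearest gene need not be the one a region acts on. It had 9.60, 3.79 and 11.1 per M in knockout libraries 1, 3 and 4, and 8.61, 9.34, 11.6 and 10.9 in wild-type libraries 1 to 4. All libraries but knockout 3 were at 8.61 or above, and the genotypes overlapped.

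Stat5b, which carries interleukin 2 and interleukin 7 signals to the nucleus, held 3 closed regions in its body. The tallest, chr11:100845645-100846361, had 7.48, 3.29 and 7.84 per M in the knockout libraries and 7.23, 7.10, 9.95 and 8.35 in the wild-type libraries. A second one, chr11:100847767-100848634, had 5.08, 2.56 and 5.16 per M in the knockout libraries and 6.11, 5.62, 5.74 and 5.30 in the wild-type libraries. In the second region all 3 knockout libraries were below all 4 wild-type libraries, as in 12.7% of all regions with a peak in all 7 libraries. In the first they overlapped. The difference of the second was -0.48 (log2, knockout minus wild type), with an adjusted p of 0.391 in limma. It was 0.06 with each library scaled to its median over the constant regions, and -0.15 without knockout library 3.

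Near Btg1, which restrains proliferation and is high in resting T cells, the tallest closed region, chr10:96693760-96694268, lay 70947 bp from the gene. Its pileup was 7.20, 4.21 and 7.40 per M in the knockout libraries and 7.05, 7.69, 9.43 and 9.46 in the wild-type libraries. Ubash3b encodes a phosphatase, also named STS-1, that dampens T cell receptor signalling. Its tallest closed region, chr9:41080939-41081328, lay inside the gene and had 7.45, 3.48 and 7.99 per M in the knockout libraries and 5.93, 7.14, 8.45 and 7.96 in the wild-type libraries. Near Creb1, a transcription factor that responds to cyclic AMP, the region chr1:64527508-64528057 had 6.67, 3.10 and 8.57 per M in the knockout libraries and 6.74, 7.66, 7.52 and 7.996 in the wild-type libraries. In these 3 regions knockout library 3 was the lowest of the 7, and the other 2 knockout libraries fell among or next to the wild-type ones.

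The pooled lists, in which the authors called peaks on all replicates of a group merged, showed how much signal was left at 72 h. The merged list of knockout cells at 72 h (90.8104 M fragments) had a peak touching 192 of the 1144 closed regions (16.783%), and that of wild-type cells (101.9927 M fragments) 187 (16.346%). A peak in either list touched 299 closed regions (26.136%), in both 80, and 845 (73.864%) had a peak in neither. By comparison, the 500 regions called in 1 of 8 libraries had a merged peak in 56.8% (knockout) and 65.0% (wild type). All 1144 were in both merged lists at 0 h. These lists pool the libraries the rule used, so the counts are no independent check.

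Where a merged peak at 72 h also had its summit inside the closed region, its pileup was low at the median, but not in every region. In knockout cells, 186 closed regions had such a peak, with a median pileup of 0.341 per M at 72 h against 1.41 at 0 h, a median ratio of 0.263, and 185 of the 186 were lower at 72 h. In wild-type cells, 179 could be compared, with a median of 0.333 per M at 72 h against 1.73 at 0 h, a median ratio of 0.210, and 178 of the 179 were lower at 72 h. The lowest pileup that single libraries at 72 h called as a peak was 0.323 to 0.356 per M, next to these medians. The region near Plcxd2, chr16:46006137-46006622, was among the highest of those left at 72 h, with 1.49 per M in knockout and 1.58 in wild-type cells at 72 h, while its mean pileup over the 7 libraries at 0 h was 7.74. Both values at 72 h were above the median called pileup of every single library at 72 h (1.01 to 1.19 per M). This region thus kept clear signal at 72 h, although no single library called a peak there. The exception in each genotype was singled out after its values were seen. In knockout cells, chr2:170347320-170347717 in Bcas1 had 0.958 per M at 72 h against 0.895 at 0 h in the merged lists, and in wild-type cells chr13:104620434-104620830, 10310 bp from Cwc27, had 1.26 at 72 h against 1.25 at 0 h. Both values at 72 h were well above the lowest pileup that single libraries called. The authors' final lists at 72 h held 1 closed region in knockout and 3 in wild-type cells.

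Closed regions lay mostly away from gene ends. Distance was measured to the bounds of the nearest protein-coding gene, since the reference table gives neither exons nor introns. Inside a gene lay 664 closed regions (58.042%), against 55.984% of opened, 75.812% of constant and 60.06% of all regions. Within 1 kb of a gene boundary lay 53 (4.633%), against 10.094% of opened, 45.443% of constant and 15.392% of all regions. The median distance to a boundary was 20173.5 bp (quartiles 7342.5 and 51145.75), against 22042 bp in opened and 2375 bp in constant regions. A gene lay within 100 kb of 1050 closed regions, and 94 (8.217%) were farther from any, against 8.035% of all regions. The farthest, chr14:53363763-53364283, lay 822407 bp from a gene boundary.

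**Figure D3:**
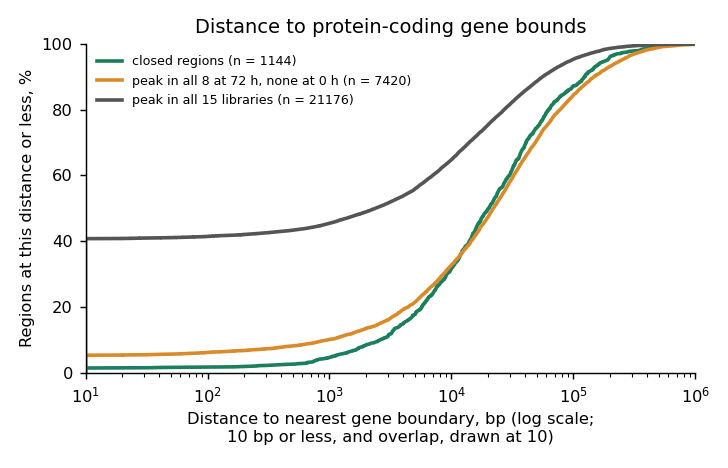
Cumulative share of regions (percent) by distance to the nearest protein-coding gene boundary (log scale, bp), for the 1144 closed regions, the 7420 opened regions and the 21176 constant regions. Distances of 10 bp or less are drawn at 10. At 1 kb the curves stand at 4.633%, 10.094% and 45.443%, and the closed and opened curves run close together beyond about 10 kb.

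Most closed regions stood alone. With a gap of at most 50 kb between neighbours, 800 were single and 344 (30.07%) had another closed region that near, against 45.728% of the more numerous opened regions. There were 122 pairs, 21 groups of 3, 8 groups of 4 and 1 group of 5. The group of 5 spanned 84.162 kb at chr1:88610660-88694821 beside Arl4c, a small GTPase of the ARF family, and Glrp1. Among the groups of 4, 1 each stood within Bcl2 over 54.13 kb, in Hecw2 over 75.144 kb, at Gramd3 over 31.856 kb, at Ubash3b over 88.07 kb and beside Pdlim4 and reaching into P4ha2 over 25.106 kb. The nearest constant region was at a median of 8952 bp, and within 10 kb for 605 closed regions. The nearest opened region was at a median of 73754 bp and within 10 kb for 137 closed regions. By chromosome, closed regions made up between 3.066% (X) and 6.109% (chromosome 15) of the regions with a peak in all 7 libraries at 0 h, leaving out Y, which had 12 such regions and 0 closed.

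Closed regions were spread over many genes. Assigned to the nearest protein-coding gene within 100 kb, they fell on 854 genes, of which 144 had 2 or more and 393 also had an opened region. Sgms1, which makes sphingomyelin, had the most, 6 closed of 61 regions, 5 of them in the gene. Tox, a transcription factor needed for CD4 T cell development, had 5 of 54. Another 9 genes had 4 each: Btg1, Ubash3b, Gramd3, Foxp1, Camk4, Mbnl1, Hecw2, Arl4c and Bcl2. These genes differ in their number of regions, with 110 at Foxp1 and 28 at Hecw2. Of the regions with a peak in all 7 libraries at 0 h, 6 of 21 were closed at Sgms1, 5 of 18 at Tox, 4 of 39 at Foxp1 and 4 of 13 at Hecw2, a ubiquitin ligase, against 4.164% of all such regions within 100 kb of a gene. The genes were picked for their number of closed regions, which favours high shares, so this comparison does not test enrichment.

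The 6 regions of Sgms1 differed in height. The strongest, chr19:32181965-32182546, had 3.67, 2.64 and 4.29 per M in the knockout libraries and 5.22, 4.76, 6.72 and 5.38 in the wild-type libraries. The genotypes did not overlap there, and all 3 knockout libraries were likewise below all 4 wild-type libraries in 12.7% of all regions tested. Its difference was -0.66 (log2), with an adjusted p of 0.391 in limma. It was -0.12 after median scaling and -0.46 without knockout library 3. The weakest, chr19:32138243-32139226, had 0.530, 0.383 and 0.828 per M in the knockout libraries and 0.580, 0.759, 0.769 and 0.792 in the wild-type libraries. The means of the other 4 lay between 1.37 and 2.17 per M.

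At Tox, the strongest of the 5, chr4:6950069-6950894, had 2.86, 1.03 and 3.17 per M in the knockout libraries and 2.36, 3.59, 3.11 and 3.29 in the wild-type libraries. The means of the other 4 lay between 1.11 and 1.42 per M. The genotypes overlapped at the strongest region, with knockout library 3 and without it. They did not overlap at chr4:6859610-6860580, with 1.24, 0.459 and 1.22 per M in the knockout libraries and 2.19, 1.34, 1.54 and 1.98 in the wild-type libraries. Its difference was -0.97 (log2), with an adjusted p of 0.391 in limma. It was -0.42 after median scaling and -0.50 without knockout library 3.

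All 4 closed regions of Foxp1, a transcription factor that keeps naive T cells quiescent, lay inside the gene, at least 98282 bp from its ends. The strongest, chr6:99023624-99024112, had 3.81, 2.22 and 4.48 per M in the knockout libraries and 4.06, 3.62, 4.69 and 4.75 in the wild-type libraries. Bcl2, which protects resting T cells from death, held all 4 of its regions in the gene, with means of 1.16 to 2.35 per M. Camk4, a calcium-dependent kinase downstream of the T cell receptor, held 4 with means of 1.06 to 3.68. Neither the 4 regions of Btg1 nor the 4 of Arl4c lay inside the gene, and within 20 kb of it lay 1 and 2 of them.

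Lists of genes by role were counted in the same way. Over all regions within 100 kb of a gene, 1.02% were closed and 6.52% opened. Around the 20 genes of naive T cells and quiescence, 21 of 583 regions were closed (3.602%), at 11 genes, and 26 were opened (4.46%). Btg1 and Foxp1 had 4 each. Lef1, a transcription factor of naive T cells, had 2, both inside the gene, the stronger (chr3:131167651-131168160) with 2.47, 1.76 and 2.87 per M in the knockout libraries and 2.59, 3.24, 3.32 and 2.85 in the wild-type libraries. S1pr1, the receptor that lets resting T cells leave lymph nodes, also had 2. The nearer, chr3:115706567-115707063, lay 3370 bp from the gene, with 2.97, 0.918 and 3.36 per M in the knockout libraries and 2.54, 3.55, 3.32 and 4.39 in the wild-type libraries.

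Around the 20 genes of T cell identity, 18 of 501 regions were closed (3.593%), at 11 genes, and 16 were opened (3.194%). Beside the 5 at Tox, there were 2 each at Runx1, Bcl11b and Ets1, which encode transcription factors that set up and keep the T cell programme. The stronger one in Runx1, chr16:92640933-92641471, had 6.88, 3.14 and 7.55 per M in the knockout libraries and 5.35, 5.76, 7.40 and 7.60 in the wild-type libraries. In Bcl11b the stronger, chr12:107996156-107996772, had 4.06, 1.68 and 3.31 per M in the knockout libraries and 3.03, 3.86, 4.65 and 4.35 in the wild-type libraries. At each of these genes other regions kept their peaks at both times: 10 at Runx1, 5 at Bcl11b and 13 at Ets1 had a peak in all 15 libraries.

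Near the 20 genes of proximal T cell receptor signalling, 10 of 485 regions were closed (2.062%). Cblb, a ubiquitin ligase that limits T cell activation, had 3, all in the gene, and the strongest, chr16:52064444-52065029, had 4.55, 2.79 and 5.84 per M in the knockout libraries and 5.71, 5.41, 5.46 and 5.82 in the wild-type libraries. Prkcq, the protein kinase C theta of the immune synapse, had 2, and the adaptor Lat had 1. Among genes induced by the T cell receptor, 4 of 236 regions were closed (1.695%), 2 of them near the costimulatory receptor Icos and 1 each in Cd44, an adhesion receptor of activated cells, and Il2ra, the interleukin 2 receptor alpha chain. The region in Il2ra, chr2:11657535-11657993, had 2.82, 1.42 and 3.41 per M in the knockout libraries and 3.52, 3.55, 5.10 and 3.72 in the wild-type libraries, and the one in Cd44, chr2:102886391-102887724, had 5.12, 1.68 and 4.33 in the knockout libraries and 4.51, 5.38, 5.95 and 5.07 in the wild-type libraries. These genes also had opened regions, 3 near Icos, 2 near Cd44 and 1 near Il2ra.

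Among the lists of T helper programmes, that of Th1 and cytotoxic genes had 6 of 208 regions closed (2.885%). They were 2 near Fasl, a death ligand, and 1 each at Stat4, which carries interleukin 12 signals, Prf1, which encodes perforin, Il12rb2, the inducible interleukin 12 receptor chain, and, named only to complete the 6, the transcription factor gene Eomes. The other lists of this kind had 1 of 93 (Th2, at the chemokine receptor gene Ccr8), 1 of 178 (Th17, near the cytokine gene Il21), 2 of 206 (regulatory T cell, at Ctla4 and Nrp1) and 2 of 136 (follicular helper and inhibitory receptors, at Il6st and Lag3). Opened regions were 10.753% of the Th2, 10.112% of the Th17 and 8.252% of the regulatory T cell regions, against 6.52% over all regions.

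Homing, TGF-beta and phosphoinositide lists had 4 to 6 closed regions each. Homing, chemokine receptor and adhesion genes had 6 of 271 (2.214%), 2 of them near Cxcr4, the chemokine receptor for CXCL12. TGF-beta receptors and SMADs had 4 of 209 (1.914%), at Smad3, Tgfbr2, Tgfbr3 and Skil. Phosphoinositide phosphatases and PI3K subunits had 4 of 257 (1.556%), 2 of them in Inpp4b, a lipid phosphatase, and 1 each in Pik3ip1, an inhibitor of PI3K, and Pik3r1, its regulatory subunit. The region in Pik3ip1, chr11:3328363-3328668, had 5.61, 2.83 and 6.04 per M in the knockout libraries and 4.91, 5.41, 6.998 and 4.95 in the wild-type libraries.

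Interferon and cell cycle lists had 1 or 2 closed regions each. The 9 interferon regulatory factors had 1 of 92 (1.087%), 24692 bp from Irf1, with 1.17, 0.842 and 1.36 per M in the knockout libraries and 1.47, 1.38, 1.66 and 2.06 in the wild-type libraries at chr11:53803066-53804193. Interferon-stimulated genes had 1 of 63 (1.587%), in Ifit2, and cell cycle genes 2 of 140 (1.429%), both in Cdk6. In wider lists of genes of other cells, which hold more genes than the markers examined above and reach 100 kb, B cell genes had 0 of 99, myeloid genes 1 of 70, in the Fc receptor gene Fcgr3, and CD8 and NK genes 1 of 81, at Xcl1, whose region was among the weaker ones with a mean of 0.645 per M.

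Lists differ in how many of their regions had a peak at 0 h, so the shares were also taken of the regions with a peak in all 7 libraries at 0 h. Over all such regions near genes, 4.164% were closed. The share was 9.677% (21 of 217) in the naive and quiescence list, 10.651% (18 of 169) in the T cell identity list and 10.526% (6 of 57) in the Th1 and cytotoxic list. It was 7.229% for homing, 5.634% for phosphoinositide phosphatases and PI3K, 5.618% for proximal T cell receptor signalling and 5.195% for TGF-beta receptors and SMADs. For genes induced by the T cell receptor it was 4.878%, and for Th17 2.941%. The lists were chosen with earlier results of these data known, and no test was made of these shares.

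**Figure D4:**
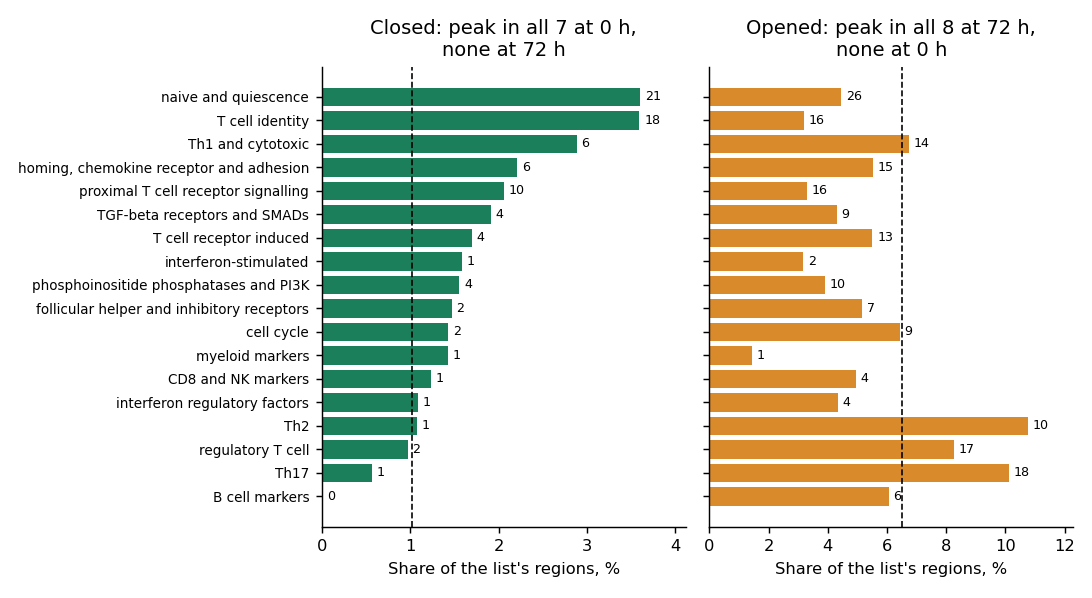
Share of each gene list's regions (percent) that were closed, left, and opened, right, with the number of such regions beside each bar and the share over all regions within 100 kb of a gene as a dashed line (1.02% closed, 6.52% opened). The naive and quiescence list (21) and the T cell identity list (18) have the longest closed bars, and the Th2 and Th17 lists the longest opened bars.

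No closed region passed the test for a difference between IRF5-/- and IRF5+/+ cells at 0 h. Pileup per M was compared on the log2 scale with limma over all 26133 regions with a peak in all 7 libraries, with Benjamini-Hochberg adjustment over all of them and calls at an adjusted p under 0.05. Of the 1144 closed regions, 0 were called higher and 0 lower in knockout cells, against 0% called in each direction over all regions (0 of 26133), and the smallest adjusted p of a closed region was 0.391 in limma. At an unadjusted p under 0.05 in limma, 0 closed regions were higher, against 0.00765% of all regions, and 75 were lower (6.56%), against 6.32% of all regions. The knockout-minus-wild-type difference had a median of -0.46 (log2) over the closed regions, from -1.07 to 0.18, and of -0.51 over all regions. Differences below 0 made up 98.601% of closed and 99.64% of all regions.

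Leaving out knockout library 3 brought the differences closer to 0. Without it, the median difference was -0.11 over the closed regions and -0.12 over all regions, and limma called 0 closed regions at the adjusted threshold, against 3 of all regions called higher (0.0115%) and 1 lower (0.00383%). With each library scaled to its median over the constant regions, the closed regions had a median difference of 0.09 and all regions of 0.03. Under this scaling 0 closed regions were called in limma, against 33 of all regions called higher (0.126%) and 1 lower (0.00383%). With the replicate number added to that scaling as a block, 1 closed region was called higher in limma, against 31 of all regions (0.119%). With median scaling and no block, 93 closed regions were higher at an unadjusted p under 0.05 in limma (8.13%, against 7.63% of all regions) and 12 were lower (1.05%, against 2.71%). In 151 closed regions all 3 knockout libraries were below all 4 wild-type libraries (13.2%, against 12.7% of all regions), and in 0 were they all above. Knockout libraries 1 and 4 alone were both below all 4 wild-type libraries in 151 closed regions (13.2%, against 12.7% of all regions). They were both above all 4 wild-type libraries in 24 closed regions (2.1%, against 0.559% of all regions). The median standard error of a closed region's difference was 0.39 (log2) and the median width of its 95% interval 1.53, so a p above the threshold does not show that the genotypes were alike.

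The 3 closed regions with the smallest p among those lower in knockout cells lay in Pde4d, a cyclic AMP phosphodiesterase, in Mnat1, a subunit of the CDK-activating kinase, and near Prph, which encodes peripherin. The region in Pde4d, chr13:109261744-109262248, had 0.706, 0.459 and 0.877 per M in the knockout libraries and 1.07, 1.93, 1.21 and 1.46 in the wild-type libraries, with no overlap. Its difference was -1.07 ± 0.35 (log2, SE), with an adjusted p of 0.391 in limma, with -0.53 after median scaling and -0.82 without knockout library 3. The region in Mnat1, chr12:73208472-73209126, had 1.13, 0.536 and 0.536 per M in the knockout libraries and 1.34, 1.41, 1.497 and 1.504 in the wild-type libraries, a difference of -1.06 (log2), with -0.52 after median scaling and -0.89 without knockout library 3. That near Prph, chr15:99065258-99065977, had 0.706, 0.459 and 0.731 in the knockout libraries and 1.38, 1.21, 1.33 and 0.990 in the wild-type libraries, a difference of -0.98 (log2), with -0.43 after median scaling and -0.76 without knockout library 3. The genotypes did not overlap in these 3 regions, which were picked for small p-values, and none passed the adjusted threshold.

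Among those higher in knockout cells, the smallest p belonged to regions in Fhit, near Itm2b and in Jarid2, with differences of 0.18, 0.17 and 0.14 (log2). They moved to 0.73, 0.71 and 0.68 after median scaling, with adjusted p of 0.276, 0.308 and 0.271 in limma, and to 0.48, 0.40 and 0.38 without knockout library 3, with an adjusted p of 0.999 in limma for each. The region in Fhit, chr14:11036066-11036745, had 1.17, 0.574 and 0.974 per M in the knockout libraries and 0.803, 0.655, 0.566 and 1.15 in the wild-type libraries. The genotypes overlapped there, and its adjusted p was 0.604 in limma.

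**Figure D5:**
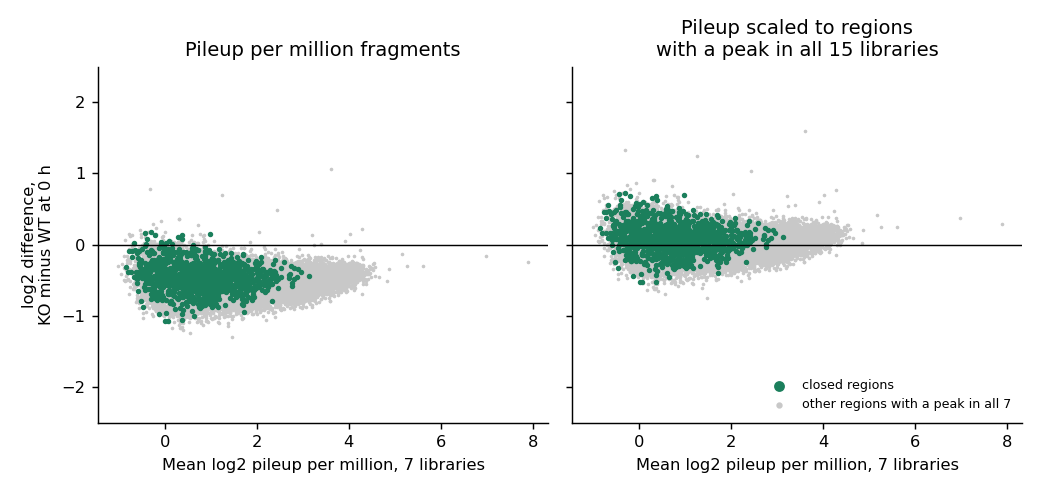
Difference between knockout and wild-type cells at 0 h (log2, knockout minus wild type) against the mean log2 pileup per M over the 7 libraries, for the 1144 closed regions (green) and the other regions with a peak in all 7 libraries (grey), per M fragments on the left and scaled to the constant regions on the right. The closed regions lie within the cloud of all regions in both panels, around a median of -0.46 on the left and 0.09 on the right.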

How the data were processed

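According to the submitters' processing notes, Trim Galore 0.5.0 was used for trimming, Bowtie2 2.2.9 for alignment to mm10, MACS2 2.1.1.20160309 for peaks and HOMER 4.10.4 besides. Per the file headers, peak calling used paired reads with no control sample, counted 1 fragment at each position and cut at a q value of 0.05. The authors deposited pileup, a fragment coverage signal at the summit, fold enrichment, its ratio to the local background, and −log10 q values. These are the authors' scores, and the q values served here only for ranking and filtering inside a list. The making of the final lists is not stated in the labels.

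Here the 15 lists were merged, and the highest pileup in a region was divided by the header's fragments in M. Genotypes were compared with limma 3.58.1 (R 4.3.3) on log2 values with a mean-variance trend, tested first on simulated data. Other tables came from Python 3.11.15. Genes are the 21887 protein-coding genes of RefSeq's GRCm38.p6 table, in which 4 symbols of the gene lists were not matched. Named regions are the 10 highest, those of the 10 genes with the most (ties included), up to 4 genes per list, the 3 smallest p per direction, and extremes of width and distance. The members and gene lists were chosen with earlier results of these data known.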

Additional observations from a re-analysis of the deposited data

Results flagged for a closer look

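In the 4 wild-type libraries at 0 h, 64 sets of values were examined for a single library far from the other 3 (Dixon's gap over the range). The sets were the library medians over the closed regions and the values of named closed regions. Of the 64, 5 were picked out, all of them regions, and chance picks about 1 in 20. In Foxp1, chr6:99179144-99179571 had 0.633 per M in library 4, against 0.937, 0.897 and 0.890 in the others. In Sgms1, chr19:32138243-32139226 had 0.580 in library 1, against 0.759, 0.769 and 0.792, and chr19:32166340-32167461 had 1.19 in library 4, against 1.65, 1.72 and 1.74. Also in Sgms1, chr19:32344673-32345644 had 2.38 in library 2, against 1.38, 1.33 and 1.39. Near Tox, chr4:6663356-6664087 had 1.62 in library 3, against 0.982, 1.0 and 0.990. Different libraries stood out in these 5 regions, and 3 of the 5 lay in Sgms1.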

How the results depend on the processing

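The number of closed regions depended on the peak lists used. It was 3083 with the 29994 strongest peaks of every library, 381 where peaks had to cover at least 0.5 of a region, and 1889 without untreated knockout library 3. Leaving out any 1 of the 15 libraries gave 1150 to 1889, and 1150 to 1238 for the 14 other than that one. It was 1363 with −log10 q of at least 5, 1141 with gaps of 100 bp merged, 1126 on autosomes, 845 without merged peaks at 72 h and 1141 without final peaks at 72 h. With all genes in place of protein-coding genes, 67.657% of closed regions lay in a gene and 9.615% within 1 kb of a boundary, and 17.657% lay within 5 kb. None of the 10 genes with the most closed regions was among the 20 with the highest share of their regions closed.

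Called closed regions stayed at 0 in both directions in limma under median scaling, fold enrichment, a pseudocount of 0.1, the q filter, a peak in at least 5 of 7 libraries, no trend, each library left out and the replicate block. Same-numbered libraries did not deviate together as a rule, with r of -0.04, -0.01 and 0.24 for numbers 1, 3 and 4. Differently numbered libraries had r of -0.14 to 0.09, so only the pair numbered 4 stood above them. The numbers are not taken as pairs. Median scaling with the replicate block, chosen after seeing the data, gave 1 closed region higher in knockout cells, chr1:156905597-156906128 in Ralgps2 (log2 difference 0.84, adjusted p 0.0125 in limma), against 31 of all regions (0.119%). That region had 2.61, 1.30 and 2.68 per M in the knockout libraries and 1.38, 2.41, 1.90 and 1.94 in the wild-type libraries, which overlap. With the block, wild-type library 2 has no partner and does not bear on the difference, and the alignment numbered 5 counts as number 4. Over the closed regions, differences below 0 numbered 819 without knockout library 3, against 1128 with all libraries. Among the 6 regions named by genotype, leaving out each library in turn changed the sign of 3 uncalled differences: Fhit, from -0.033 (without knockout library 1) to 0.48 (without knockout library 3), Itm2b, from -0.15 (without knockout library 4) to 0.40 (without knockout library 3), and Jarid2, from -0.035 (without wild-type library 1) to 0.38 (without knockout library 3). The cause was not tested. Depth limits the calling of weak peaks, and a region just under the threshold in 1 library leaves the set.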
